A study of Solanum lycopersicum with 24 samples.

Results

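Leaves that had been hardened by cold were compared with leaves that had not, both after the same exposure to 0 °C, in total RNA of tomato (Solanum lycopersicum, selection line YaLF). The comparison, Combo_vs_Stress, took all libraries that the sample labels assign to these conditions in the total RNA fraction, which were 2 Combo and 2 Stress libraries and so 4 of the 24 libraries of the series. Stress plants came straight from growth at 25 °C to 0 °C for 2 h. Combo plants were first hardened for 5 days and then received the same 2 h at 0 °C. All plants were listed as 28 days old and were kept under a 16 h photoperiod, and leaves of levels 2 to 4 were taken. The remaining 4 total RNA libraries, 2 of Control (neither treatment) and 2 of Hardening (5 days, no 0 °C), served to ask whether hardening changed the same transcripts without the exposure. They were also part of the same fit, so the errors and p-values of Combo_vs_Stress draw on all 8 total RNA libraries.

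Several features limit the groups as a model of hardening. The labels give 6 °C for the hardening and the study's methods give 4 °C. Labels and methods both give 25 °C for growth, but the methods also list the control condition at a lower temperature. The labels also give a light of 100 µmol/(m2 s) during growth and 200 during hardening, whereas the methods give 200 for both, so that by the labels cold and light cannot be told apart. Whether the unhardened plants were kept for a further 5 days is not given in the sources used here. Combo and Stress leaves were collected at the same hour, 2 h later than Control and Hardening leaves. The methods call the paired libraries technical repeats of 1 sample, whereas the deposited columns are headed as biological replicates. If the former holds, p-values here measure the spread between libraries and not that between plants.

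Plants of temperate origin raise their tolerance of freezing during days of low positive temperature, which is called cold acclimation or hardening. Tomato is a chilling-sensitive species that acclimates poorly. The best known route runs from the MYC-type factor ICE1 to the CBF (DREB1) factors, which are induced within hours of cold and activate COR genes, among them dehydrins and other late embryogenesis abundant (LEA) proteins that protect membranes and proteins from water loss. Abscisic acid activates many of the same protective genes. Cold slows the enzymes of carbon fixation more than light capture, and plants commonly lower the light-harvesting antenna when absorbed light exceeds what can be used.

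Values are TPM, estimates corrected for transcript length that add up to 1000000 in each library. They keep no depth, and counting error is therefore unknown. Between 20932 and 21698 transcripts reached 1 TPM in the Combo and Stress libraries. The 10 most abundant transcripts took 6.67% and 8.86% of TPM in the Combo libraries and 13.5% and 14.2% in the Stress libraries, and because TPM add up to a fixed sum, such a difference shifts all other values. Log2 changes are therefore from values divided by a factor per library (0.902 and 0.912 in Stress, 1.10 and 1.15 in Combo) with 1 added, whereas single values are TPM as deposited. Leaf markers (rbcS1, Cab-1A and CAB4) were high in Stress and lower in Combo, whereas the pollen genes LAT52 and LAT59 and the fruit genes E8 and RIN stayed under 1 TPM in all 8 libraries. Of the other fruit and pollen markers, LAT56 reached 1.07 and EXP1 1.93 TPM, and PSY1, a phytoene synthase gene, was at 37.2 and 37.3 TPM in Stress and 81.5 and 81.5 TPM in Combo. The trichome genes MTS1 and CPT1 reached at most 1.93 TPM, in Stress. In whole leaves, fewer cells of a type and less RNA per cell cannot be told apart.

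Hardening went with a broad change of the leaf transcriptome at 0 °C. Of 22027 transcripts tested, 3213 (14.6%) were Up in Combo, that is, had a log2 change over 1 and an adjusted p under 0.05 in limma, and 4612 (20.9%) were Down. A further 6209 were Stable (adjusted p under 0.05, change within 1). The Down group also changed further: 1776 Down transcripts and 796 Up transcripts passed 2 on the log2 scale, and 216 and 78 passed 4. The median change of all transcripts tested was -0.016. With TPM as deposited, without factors, 4692 were Up and 3675 Down, so the share of Up among called transcripts moved from 41.1% to 56.1%. The balance of the directions therefore depended on the scaling. In what follows, the counts of each gene list are to be read against the 14.6% Up and 20.9% Down of all transcripts tested.

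The largest rise of all transcripts tested was that of LE25 (NM_001309385.1), a LEA protein gene first known from drought. It was at 0.925 and 1.43 TPM in the Stress libraries and at 1883 and 1727 TPM in the Combo libraries, a log2 change of 9.46 ± 0.21 (SE, adjusted p = 6.49e-07). LE25 was thus close to 1 TPM in unhardened leaves at 0 °C, and in hardened leaves it had rank 32 among 22027 transcripts by mean TPM. AKR4B (NM_001353492.1), an aldo-keto reductase gene, moved from 3.83 and 4.35 to 1706 and 1745 TPM (8.12 ± 0.08, adjusted p = 9.83e-08). LAPA1 (NM_001246933.2), the wound-inducible leucine aminopeptidase, rose from 3.99 and 3.87 to 657 and 580 TPM (6.69 ± 0.09). The other 9 of the 12 largest named rises lay between 4.26 and 5.24. They were ca3 (a carbonic anhydrase), ACO3 (ACC oxidase, the last step of ethylene synthesis), TAS14 (a dehydrin), ERF84 (an ethylene response factor), MAPK4 (a mitogen-activated protein kinase), ASR3 (an abscisic acid, stress and ripening protein), INO, RNALE (a secreted ribonuclease known from phosphate starvation) and Xegip (an inhibitor of fungal xyloglucanases). Of these, ca3, ACO3, ERF84, INO and RNALE were under 1 TPM in both Stress libraries, so their sizes and ranks depend on the 1 that is added. The same holds for sizes given below for other transcripts under 1 TPM in a condition.

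Among the 12 named transcripts that fell furthest, 8 encode chlorophyll a/b-binding proteins of the light-harvesting antenna. Cab-1D (NM_001346777.1) was at 4117 and 3731 TPM in Stress and at 18.1 and 16.3 TPM in Combo (-8.06 ± 0.07, adjusted p = 7.81e-08). CAB12 went from 760 and 743 to 3.53 and 2.37 TPM (-7.86 ± 0.13). The remaining 4 were GLO2, cat1, ERF-B5 and ERF-B4. GLO2 (glycolate oxidase) and cat1 (catalase) act one after the other in photorespiration, and fell from 340 and 325 to 2.74 and 1.29 TPM and from 1312 and 1246 to 25.5 and 23.3 TPM. ERF-B4, an ethylene response factor, was at 53.6 and 71.2 TPM in Stress and is listed at 0 in both Combo libraries, so no fold is given for it.

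**Figure D1:**
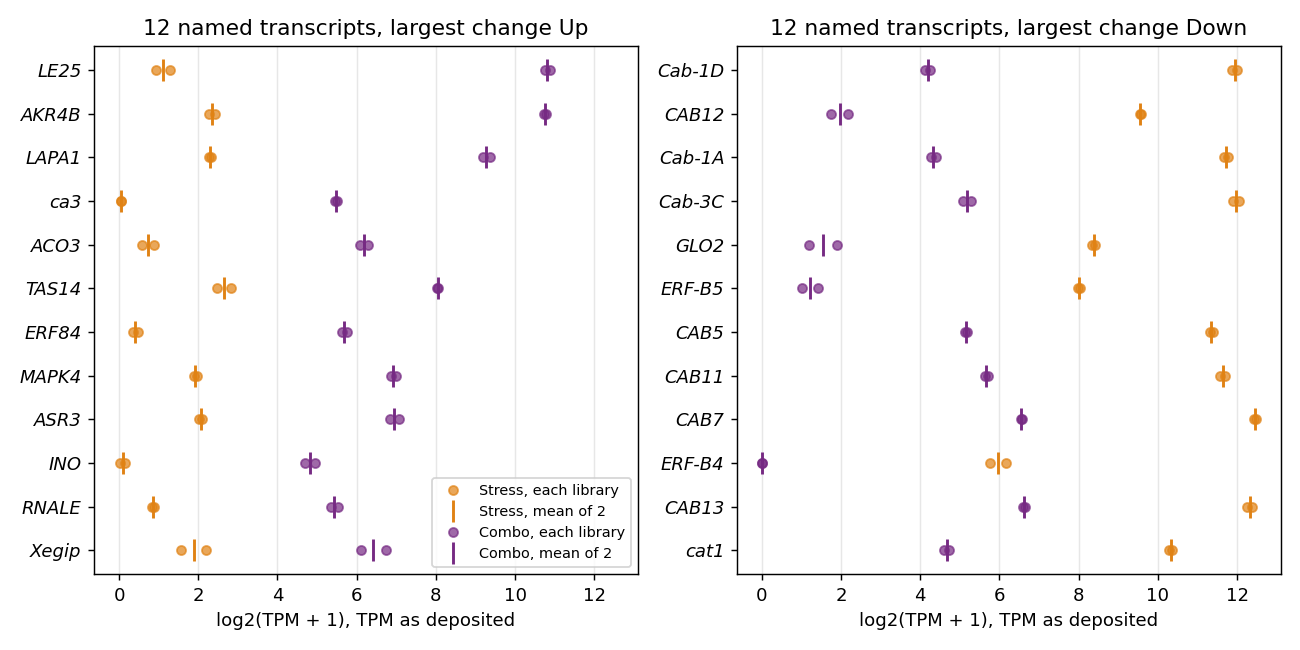
Levels of the 12 named transcripts with the largest rise (left) and the 12 with the largest fall (right) in Combo_vs_Stress, as log2(TPM + 1) of deposited TPM. Points are single libraries (2 of Stress in orange, 2 of Combo in purple) and ticks are means of 2. The conditions do not overlap in any row. Points of a condition lie close together in most rows, and further apart for Xegip and for GLO2 in Combo. LE25 runs from near 1 to near 11 on this scale and Cab-1D from near 12 to near 4.

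Genes of LEA proteins, dehydrins and related stress proteins moved in both directions. Of 10 transcripts tested, 4 rose, 3 fell and 3 were not called, with a median change of 0.45. Besides LE25, TAS14 rose from 4.60 and 6.05 to 262 and 263 TPM (5.10 ± 0.13), and ASR3 from 3.06 and 3.27 to 113 and 133 TPM (4.61 ± 0.12). The dehydrin DHN was already abundant in Stress, at 435 and 349 TPM, and reached 3892 and 3105 TPM in Combo (2.84 ± 0.20). Other members of the list fell. Asr4, from the family of ASR3, dropped from 384 and 361 to 42.0 and 35.8 TPM (-3.54 ± 0.10), and COR413IM1, a cold-regulated protein of the chloroplast inner membrane, from 16.6 and 21.5 to 4.07 and 4.64 TPM (-2.17 ± 0.17).

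In the CBF pathway, CBF1 fell and ICE1A rose. CBF1 (NM_001247194.2), the cold-induced activator of COR genes, was at 195 and 186 TPM in Stress and at 10.9 and 12.5 TPM in Combo (-4.22 ± 0.18, adjusted p = 5.70e-06). The 2 Control libraries held 12.2 and 8.17 TPM and the 2 Hardening libraries 3.23 and 2.60 TPM. The level in hardened leaves at 0 °C was thus near that of Control and above that of Hardening, comparisons that were not tested. ICE1A (NM_001287789.1), one of the tomato ICE1 factors that act on CBF promoters, rose instead, from 25.8 and 25.1 to 124 and 113 TPM (1.87 ± 0.06). DREB3, the most abundant member, was at 446 and 389 in Stress and 344 and 299 TPM in Combo, a change of -0.68 ± 0.11 that did not reach the threshold. In the whole list of 11 transcripts 2 rose, 3 fell and 6 were not called (median -0.16), shares near those of all transcripts.

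Genes of the photosynthetic apparatus were lower in Combo. All 15 light-harvesting transcripts fell, with changes from -8.06 to -4.35 and a median of -6.01. Their summed level was 60380 and 56050 TPM in the Stress libraries and 1641 and 1620 TPM in the Combo libraries. CAB1B, the most abundant of them, went from 9061 and 8252 to 538 and 514 TPM (-4.35 ± 0.08). These genes are similar in sequence, and kallisto divides reads shared by such copies by estimation, so the split between members is less certain than their sum. The 7 photosystem and electron transport transcripts all fell too (median -3.72). PSBO and OEE1, of the oxygen-evolving complex, fell from 3486 and 3114 to 294 and 287 TPM and from 2105 and 1923 to 173 and 177 TPM. PSBR, the most abundant, kept a higher share (13323 and 11970 against 3240 and 3193 TPM, -2.28 ± 0.09).

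In the Calvin cycle list, 5 of 6 transcripts fell and 1 rose. The small subunit genes of Rubisco differed in the size of their fall. RBCS4, the most abundant transcript in Stress, went from 34233 and 32407 to 13626 and 13220 TPM (-1.62 ± 0.08), and rbcS1 from 11560 and 10415 to 740 and 669 TPM (-4.27 ± 0.08). Carbonic anhydrase genes moved in opposite directions. ca2 fell from 1840 and 1798 to 134 and 137 TPM (-4.04 ± 0.07), whereas ca3 went from 0.0362 and 0.0411 to 42.6 and 44.1 TPM (5.24 ± 0.10). The level that ca3 reached was still below what remained of ca2.

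Chlorophyll metabolism showed 1 rise and 6 falls among 13 transcripts (median -0.91). POR and POR2, the protochlorophyllide reductases that make chlorophyll in light, dropped from 329 and 317 to 7.58 and 6.36 TPM and from 306 and 286 to 21.5 and 20.1 TPM. GLK1 and GLK2, factors that promote chloroplast development, fell as well (-3.27 and -2.98, chosen after their values were seen). The single rise was SGR1, the stay-green protein that starts chlorophyll breakdown, from 50.6 and 56.4 to 369 and 391 TPM (2.50 ± 0.08). Of the 3 photoprotection transcripts, PTOX (the plastid terminal oxidase) rose from 9.06 and 9.59 to 63.9 and 61.0 TPM and ELIP (NM_001320256.1), an early light-induced protein, from 79.3 and 81.6 to 395 and 421 TPM (2.02 ± 0.08). VDE, the violaxanthin de-epoxidase of the xanthophyll cycle, fell from 25.1 and 25.7 to 6.47 and 6.24 TPM (-2.13 ± 0.08).

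Of 20 transcripts of light receptors and light signalling, none was Up and 4 were Down (median -0.68), a share of falls near that of all transcripts, and with TPM as deposited 2 were Up. PHOT1, a blue-light receptor of chloroplast movement and phototropism, went from 110 and 96.8 to 12.4 and 11.1 TPM (-3.33 ± 0.08), and the cryptochrome Cry1b from 31.1 and 32.8 to 2.15 and 2.14 TPM (-3.64 ± 0.13). CRY3 was Stable, at 6.07 and 5.48 TPM in Stress and 5.35 and 4.99 TPM in Combo (-0.40 ± 0.09). In the clock list 4 of 6 transcripts fell, among them CO1, a CONSTANS-type gene, from 47.4 and 43.6 to 13.3 and 11.1 TPM (-2.11 ± 0.09), and LNK1 from 33.2 and 34.6 to 9.34 and 17.3 TPM (-1.64 ± 0.37). All 4 clock calls came from CO1 and from 3 transcripts of LNK1. Among 5 transcripts of the flowering list, SP5G, an FT-like repressor of flowering in tomato, was at 36.9 and 33.6 TPM in Stress and at 0.204 and 0 TPM in Combo, whereas SP2G rose (0.504 and 1.01 to 21.7 and 18.4 TPM, 3.37 ± 0.18).

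The abscisic acid list had the largest share of rises among the hormone lists, with 10 Up and 2 Down of 19 transcripts and a median of 1.37. PP2C-2, a phosphatase of the family that restrains abscisic acid signalling and is itself induced by the hormone, rose from 36.2 and 32.4 to 770 and 707 TPM (4.08 ± 0.07). AREB1, a bZIP factor that activates abscisic acid target genes, rose from 1.46 and 1.73 to 24.3 and 15.2 TPM (2.71 ± 0.32). The 10 rises belonged to 5 genes, since PP2C-1 and ABI2 were tested as several transcripts. NCED1, which carries out the committed step of abscisic acid synthesis, was one of the 5 (1.37, chosen after its values were seen). ZEP, which supplies its precursors, fell from 221 and 204 to 66.7 and 61.3 TPM (-2.02 ± 0.06).

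Ethylene synthesis genes separated by paralogue. ACO4 rose from 227 and 225 to 1723 and 1766 TPM (2.63 ± 0.06) and ACO3 from 0.505 and 0.838 to 67.4 and 77.1 TPM (5.23 ± 0.16). ACO6, of the same family, fell from 722 and 679 to 56.2 and 56.7 TPM (-3.92 ± 0.06), and ACO1, the most abundant, was not called (900 and 944 against 1650 and 1803 TPM, 0.59 ± 0.14). ACS6, which makes the substrate of these enzymes, fell from 29.8 and 69.6 to 1.98 and 3.67 TPM (-3.90 ± 0.55), with the 2 Stress libraries further apart than those of most genes named here. In all, 6 of 31 transcripts rose, 3 fell and 22 were not called (median 0.15).

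Ethylene response factors included some of the steepest changes in both directions, with 10 Up, 12 Down and 26 not called of 48 (median -0.33). The share of falls was near that of all transcripts. ERF-B5 (XM_004235137.4) fell from 261 and 251 to 1.67 and 1.01 TPM (-7.03 ± 0.21) and ERF5 from 149 and 135 to 2.94 and 3.05 TPM (-5.43 ± 0.12). ERF84 rose from 0.272 and 0.386 to 52.7 and 48.5 TPM (5.07 ± 0.13) and ERF52 from 0.0370 and 0.169 to 20.5 and 21.9 TPM (4.16 ± 0.15). ERF-F4, the most abundant, was at 875 and 798 in Stress and 621 and 578 TPM in Combo and was not called (-0.79 ± 0.10).

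The jasmonate and wound list split almost evenly, with 8 Up and 9 Down of 26 (median -0.17). LAPA1 led the rises. TomloxE, a lipoxygenase gene, rose from 4.03 and 3.29 to 40.0 and 38.7 TPM (2.84 ± 0.10), whereas loxF, also a lipoxygenase gene, fell from 71.2 and 82.6 to 5.05 and 5.84 TPM (-3.88 ± 0.16). SLJAZ3, a JAZ repressor of jasmonate responses, rose from 31.7 and 29.5 to 78.2 and 81.9 TPM (1.05 ± 0.15), just past the threshold. Most pathogenesis-related transcripts were lower, 11 of 14 (median -2.18), and the other 3 rose. PR1b1 (NM_001247385.2) went from 16577 and 15745 to 4720 and 4586 TPM (-2.11 ± 0.10), PR-1a1 from 61.9 and 61.2 to 5.36 and 4.33 TPM, and P69B, a subtilisin-like protease, from 467 and 474 to 32.4 and 32.7 TPM (-4.12 ± 0.09). CHI9, a chitinase, was among the falls (-2.25, named after its values were seen). The 3 rises were also chitinases: CHI14 (3.19 ± 0.13), CHI17 (2.94 ± 0.10) and, named after its values were seen, CHI3, which went from 1535 and 1507 to 14106 and 13859 TPM and was the most abundant transcript in Combo.

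Other families of transcription factors had few transcripts tested, and their shares of calls were not compared by a test. Of 13 WRKY transcripts, 2 rose and 3 fell, shares near those of all transcripts. WRKY40, a fast stress-induced factor, dropped from 331 and 309 to 57.5 and 52.8 TPM (-2.82 ± 0.07), and WRKY45 rose from 8.14 and 11.3 to 106 and 139 TPM (3.23 ± 0.31). In the NAC family 2 of 8 rose and none fell, and with TPM as deposited 4 rose. JA2 and JA2L, NAC factors of stomatal movement in tomato, rose from 84.6 and 75.1 to 1395 and 1186 TPM (3.69 ± 0.12) and from 4.90 and 4.67 to 56.2 and 54.4 TPM (3.00 ± 0.10). Of 8 MYB transcripts 4 rose and 2 fell (1 with TPM as deposited), all under the minimum of 10 TPM for single mention.

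In the lists of growth genes, falls outnumbered rises. In the auxin list 22 of 52 transcripts fell and 3 rose (median -0.81). The Aux/IAA repressor IAA4 fell from 193 and 193 to 5.74 and 6.52 TPM (-5.05 ± 0.08) and GH3-8, which conjugates auxin to amino acids, from 27.4 and 31.0 to 0.494 and 0.381 TPM, whereas IAA15 rose from 17.9 and 19.8 to 271 and 271 TPM (3.48 ± 0.07). Of 36 cell wall transcripts 18 fell and 4 rose (median -1.06). EXP2, an expansin that loosens walls, went from 81.3 and 79.9 to 3.49 and 2.86 TPM (-4.56 ± 0.08). The xyloglucan endotransglucosylase XTH7 fell from 112 and 94.6 to 5.24 and 3.47 TPM, and its relatives XTH5 and XTH9 rose by 1.92 ± 0.20 and 2.21 ± 0.16. Gibberellin genes showed 4 falls and 1 rise of 8, with the DELLA repressor GAI at 45.8 and 45.7 in Stress and 7.81 and 7.57 TPM in Combo (-2.72 ± 0.07). In the cell cycle and histone list 9 of 23 fell and 2 rose. Both rises, krp2 (3.46 ± 0.09) and krp1 (1.29 ± 0.11), are inhibitors of cyclin-dependent kinases.

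Sugar and starch genes changed in both directions, with 11 Up and 16 Down of 38 (median -0.88). The enzymes of sucrose and starch breakdown sus3 (sucrose synthase) and BAM1 (beta-amylase) rose from 32.2 and 35.6 to 291 and 304 TPM (2.79 ± 0.10) and from 230 and 190 to 1044 and 859 TPM (1.86 ± 0.14). FRK1, a fructokinase, rose by 2.67 ± 0.12. The hexose transporters STP11 and STP12 fell from 45.9 and 49.8 to 3.30 and 3.67 TPM and from 31.2 and 31.4 to 5.46 and 5.16 TPM. In the list of proline, polyamine and GABA metabolism 5 of 14 fell and 1 rose (3 with TPM as deposited). gad2, a glutamate decarboxylase that makes GABA, fell from 270 and 263 to 10.4 and 10.5 TPM (-4.84 ± 0.06). Of the GABA transaminases that degrade it, GABA-TP1 rose from 36.6 and 33.4 to 320 and 292 TPM (2.78 ± 0.07) and GABA-TP2 fell from 98.5 and 120 to 12.0 and 14.3 TPM (-3.26 ± 0.18).

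Antioxidant genes fell more often than they rose, 11 against 4 of 32 (median -0.29), but with TPM as deposited the counts were 7 and 7. GPXle-1, a glutathione peroxidase, rose from 205 and 205 to 1605 and 1708 TPM (2.70 ± 0.07), the cytosolic superoxide dismutase SODCC.1 from 103 and 96.9 to 644 and 604 TPM (2.32 ± 0.08), and the ascorbate peroxidase APX1 from 801 and 786 to 2376 and 2423 TPM (1.28 ± 0.06). Besides cat1, GGP1, which controls ascorbate synthesis, fell from 990 and 920 to 230 and 205 TPM (-2.44 ± 0.07). Of 11 transcripts of fatty acid and membrane lipid metabolism 6 fell and none rose (median -1.41). LE16, a lipid-transfer protein gene, fell from 21.5 and 20.5 to 3.43 and 5.78 TPM, and the plastid desaturase Fad7, which raises membrane unsaturation, fell too (-1.41, chosen after its values were seen).

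Secondary metabolism was divided within pathways. In the flavonoid list 7 of 15 rose and 6 fell (median 0.63). F3H (flavanone hydroxylase) and the glycosyltransferase UGT73C4 rose from 6.71 and 6.37 to 55.1 and 51.7 TPM and from 3.81 and 4.16 to 34.5 and 31.0 TPM. PAL3, a phenylalanine ammonia-lyase at the entry of the pathway, fell from 688 and 633 to 145 and 144 TPM (-2.49 ± 0.07), and F3'H from 18.6 and 17.5 to 4.28 and 3.84 TPM. In the carotenoid and isoprenoid list 10 of 43 fell and 3 rose (median -0.63), a share of falls near that of all transcripts. DXS, the first enzyme of the plastid isoprenoid route, fell from 166 and 151 to 18.9 and 17.6 TPM (-3.35 ± 0.07) and HDR, its last, from 675 and 597 to 343 and 328 TPM (-1.23 ± 0.07, and -0.92 with TPM as deposited, which is not past the threshold).

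Transport genes were lower where they were called, with few exceptions. Of 14 aquaporin transcripts 9 fell and none rose (median -1.74). PIP1-7 fell from 299 and 300 to 18.3 and 19.1 TPM (-4.24 ± 0.11) and PIP2-7 from 136 and 135 to 8.99 and 8.59 TPM, whereas PIP1-5, the most abundant, was Stable (1181 and 1176 against 1127 and 1181 TPM, -0.34 ± 0.12). Of 26 transcripts of mineral transport and assimilation 10 fell and 3 rose (median -0.33). GS2, the plastid glutamine synthetase that refixes ammonium from photorespiration, fell from 1398 and 1314 to 229 and 219 TPM (-2.90 ± 0.07), and NHX1, a vacuolar sodium/proton exchanger, rose from 1.86 and 1.96 to 33.9 and 28.9 TPM (3.21 ± 0.16).

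Chaperone genes rose in 7 and fell in 3 of 19 cases (median 0.10). Hsc70.1 rose from 82.6 and 66.8 to 640 and 577 TPM (2.71 ± 0.12) and Hsp90-1, the most abundant, from 287 and 257 to 1415 and 1309 TPM (2.01 ± 0.07). Hsp20.0, a small heat shock protein gene, fell from 65.0 and 62.0 to 14.1 and 13.0 TPM (-2.45 ± 0.07). HSFA3, a heat shock factor, was at 38.2 and 24.0 TPM in Stress and at 8.87 and 0 TPM in Combo, and its call was lost with a pseudocount of 0.1 (adjusted p = 0.0502), without Stress replicate 1 (0.0862) and without Stress replicate 2 (0.0524), with fitted changes of -5.24, -3.23 and -3.87 against -3.54. In the calcium and kinase list 11 of 41 rose and 4 fell (median 0.31). CaM2, a calmodulin gene, rose from 1363 and 1158 to 3501 and 3118 TPM (1.08 ± 0.13, and 0.97 and not called without Stress replicate 2), and MAPK4 from 2.68 and 2.92 to 126 and 116 TPM, while MPK3 and its upstream kinase MKK4, known from defence and acute stress signalling, fell by 1.72 and 1.93 on the log2 scale. Of 16 translation transcripts 2 rose and none fell, and with TPM as deposited 8 rose. The rises were the cap-binding factors eIF4E2 (1.93 ± 0.11) and EIF(ISO)4E (1.45 ± 0.09). Among 24 miRNA precursor transcripts 2 rose and 6 fell, shares near those of all transcripts. MIR167b, whose mature miRNA targets auxin response factors, fell from 15.9 and 25.5 to 0.632 and 0.982 TPM, and MIR168a, whose miRNA targets ARGONAUTE1, rose from 66.2 and 53.5 to 166 and 144 TPM (1.05 ± 0.11). That call was lost without Stress replicate 2 (0.91) and without Combo replicate 1 (0.98). These libraries were selected for poly(A) and hold precursors, not mature miRNAs.

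**Figure D2:**
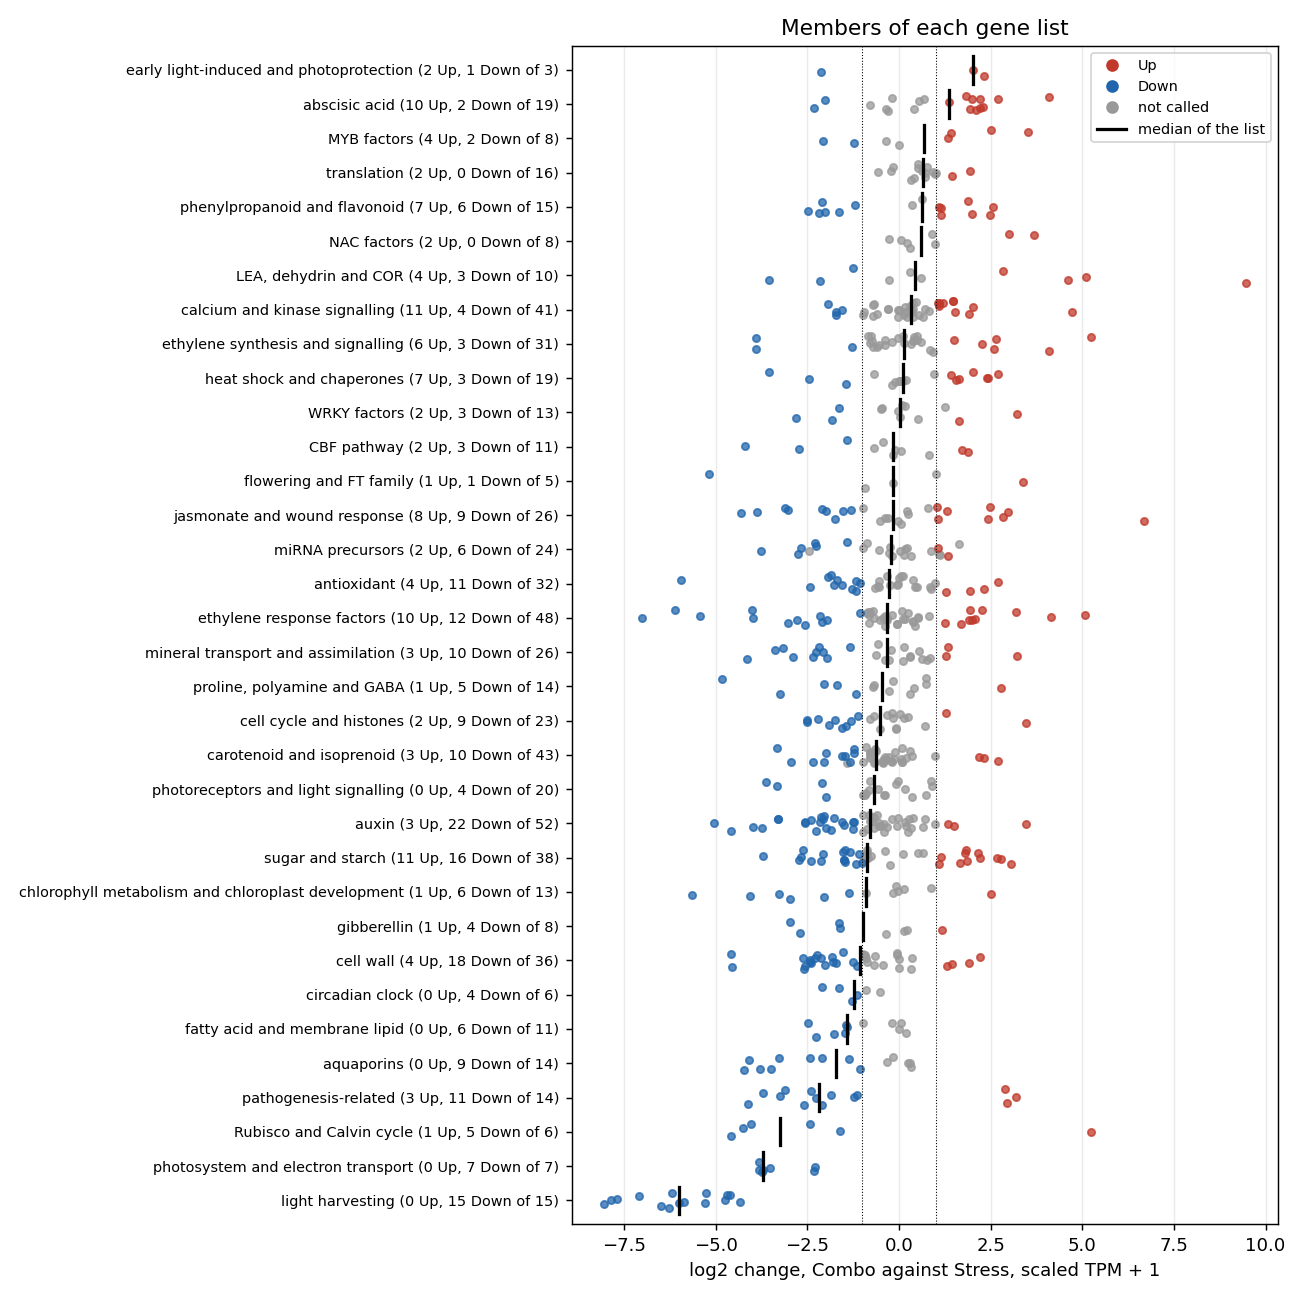
Log2 change in Combo_vs_Stress of every tested member of 34 gene lists, ordered by the median of the list (black bar). Red points are Up, blue points Down and grey points not called, dotted lines mark changes of -1 and 1, and the label gives the counts. Light harvesting stands at the bottom with all 15 members Down and a median of -6.01, and abscisic acid near the top with 10 of 19 Up.

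To ask how much of the difference was there without 0 °C, the same change was computed for Hardening against Control. The means compared come from 4 libraries that do not enter the means of Combo_vs_Stress. The filter, the error and the calls of both comparisons come from 1 fit of all 8 libraries, so the called sets are not independent. In Hardening_vs_Control, 2902 transcripts (13.2%) were Up and 3836 (17.4%) Down. Of the Up transcripts of Combo_vs_Stress 2196 were also Up in Hardening_vs_Control, which is 68.3% of the former and 75.7% of the latter. Of the Down transcripts 3136 were shared, 68% of the former and 81.8% of the latter. Only 17 transcripts were called in opposite directions, 1 of which has a symbol other than a locus number (SLJAZ3). Across 22027 transcripts the changes had a Pearson's r of 0.863, given as a description because transcripts are not replicates. All 15 antenna transcripts were Down in both comparisons. None had a called interaction, since none reached a size over 1, although several had an adjusted p under 0.05. Most of these values were negative, and CAB1B, the most abundant member, was alone in having a positive value (interaction 0.43, adjusted p = 0.0477). Cab-1D was at 18.0 and 17.3 TPM in Hardening, close to its Combo level, whereas CAB4 was at 347 and 341 TPM in Hardening and 190 and 181 TPM in Combo (interaction -0.87, adjusted p = 0.0031), and CAB13 at 197 and 180 TPM in Hardening and 94.9 and 98.7 TPM in Combo (-0.86).

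The difference between these changes was then tested for every transcript as an interaction. It asks whether hardening changed a transcript more, or less, at 0 °C, and it also holds the later sampling hour of Stress and Combo. With an adjusted p under 0.05 and a size over 1, 661 transcripts (3.0%) were higher and 919 (4.17%) lower. Among called transcripts that have a symbol and average 10 TPM or more in Stress and Combo, the 5 highest values were those of LAPA1, CHRDi, NAOD, SLJAZ3 and TAS14, and the 5 lowest those of ERF-B5, ERF-B4, ELIP, ERF5 and CBF1. CRY3, below that level, had -2.90.

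All 5 of the highest were lowest in Stress, a pattern that choosing by this difference favours. LAPA1 was at 60.6 and 54.0 TPM in Control, 463 and 417 in Hardening, 3.99 and 3.87 in Stress and 657 and 580 in Combo (interaction 4.17, adjusted p = 0.00028). CHRDi (NM_001279340.2) was at 58.0 and 70.7 TPM in Control, 67.4 and 82.3 in Hardening, 4.85 and 4.73 in Stress and 99.3 and 106 in Combo (4.06). Without 0 °C hardening thus changed CHRDi by only -0.19, which was not called. TAS14 was at 14.3 and 14.6 TPM in Control and 93.1 and 107 in Hardening, so its Stress libraries lay below Control and its Combo libraries above Hardening (2.78). NAOD, an N-acetylornithine deacetylase, was highest in Control (78.7 and 106 TPM), and in Combo (33.5 and 38.4 TPM) it was above Stress (15.3 and 18.0 TPM) by 0.77 ± 0.22, which was not called.

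Of the 5 lowest, 3 ethylene response factors and CBF1 had their highest level in Stress, which the choice favours in the same way. ERF-B5 was at 32.4 and 31.1 TPM in Control, 2.42 and 1.21 in Hardening, 261 and 251 in Stress and 1.67 and 1.01 in Combo (interaction -3.12, adjusted p = 0.0023). ERF5 was at 23.0 and 18.1 TPM in Control and at 2.35 and 2.24 TPM in Hardening, so that both factors were low in hardened leaves with and without 0 °C. The Combo libraries lay above the Hardening libraries for ERF5 and for CBF1 (interaction -2.38), but not for ERF-B5. ELIP and CRY3 had another pattern and were highest in Hardening, ELIP at 2285 and 2581 TPM and CRY3 at 33.7 and 32.3 TPM, well above their levels in Combo. PR1b1 had yet another pattern, with similar levels in Control (16434 and 14188 TPM), Hardening (17584 and 16153 TPM) and Stress and a lower level in Combo (interaction -1.84).

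**Figure D3:**
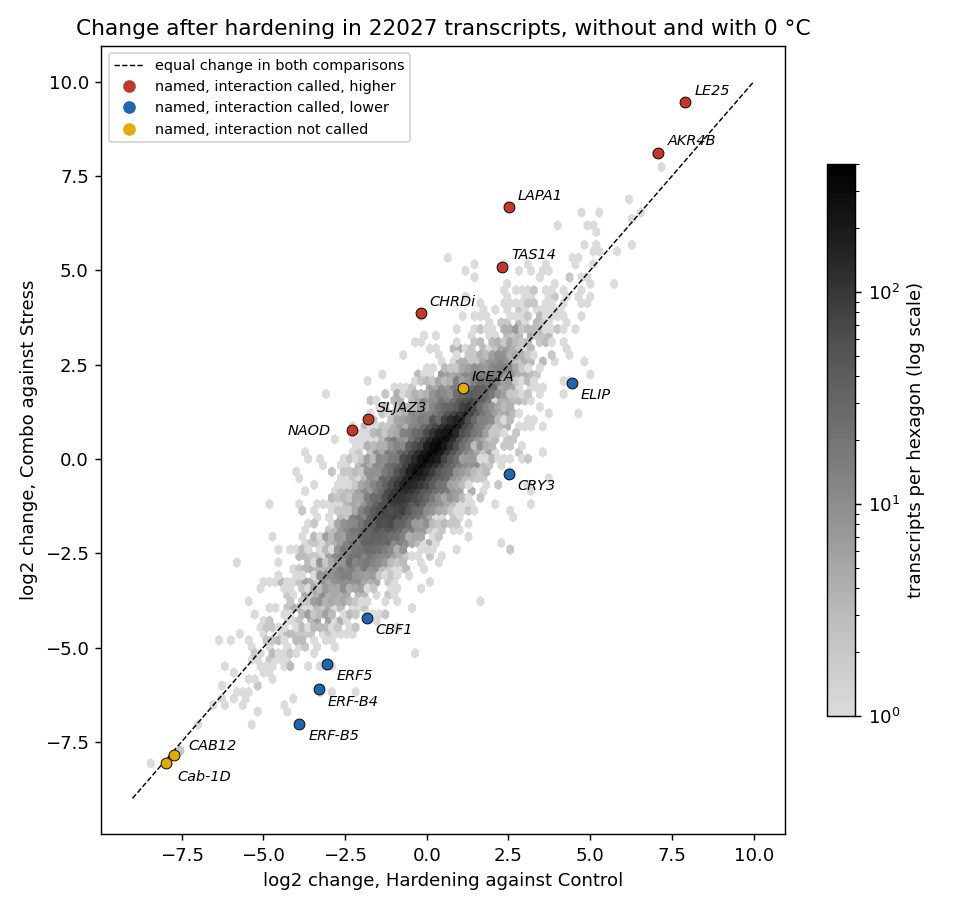
Log2 change in Combo_vs_Stress (y axis) against that in Hardening_vs_Control (x axis) for 22027 transcripts, as hexagons shaded by number on a log scale, with the line of equal change. Coloured points are named transcripts, red where the interaction was called higher, blue where lower and yellow where not called. Cab-1D lies on the line at its lower end, LE25 above it at the upper end, LAPA1, CHRDi and TAS14 further above it, and ERF-B5, CBF1, ELIP and CRY3 below it.

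**Figure D4:**
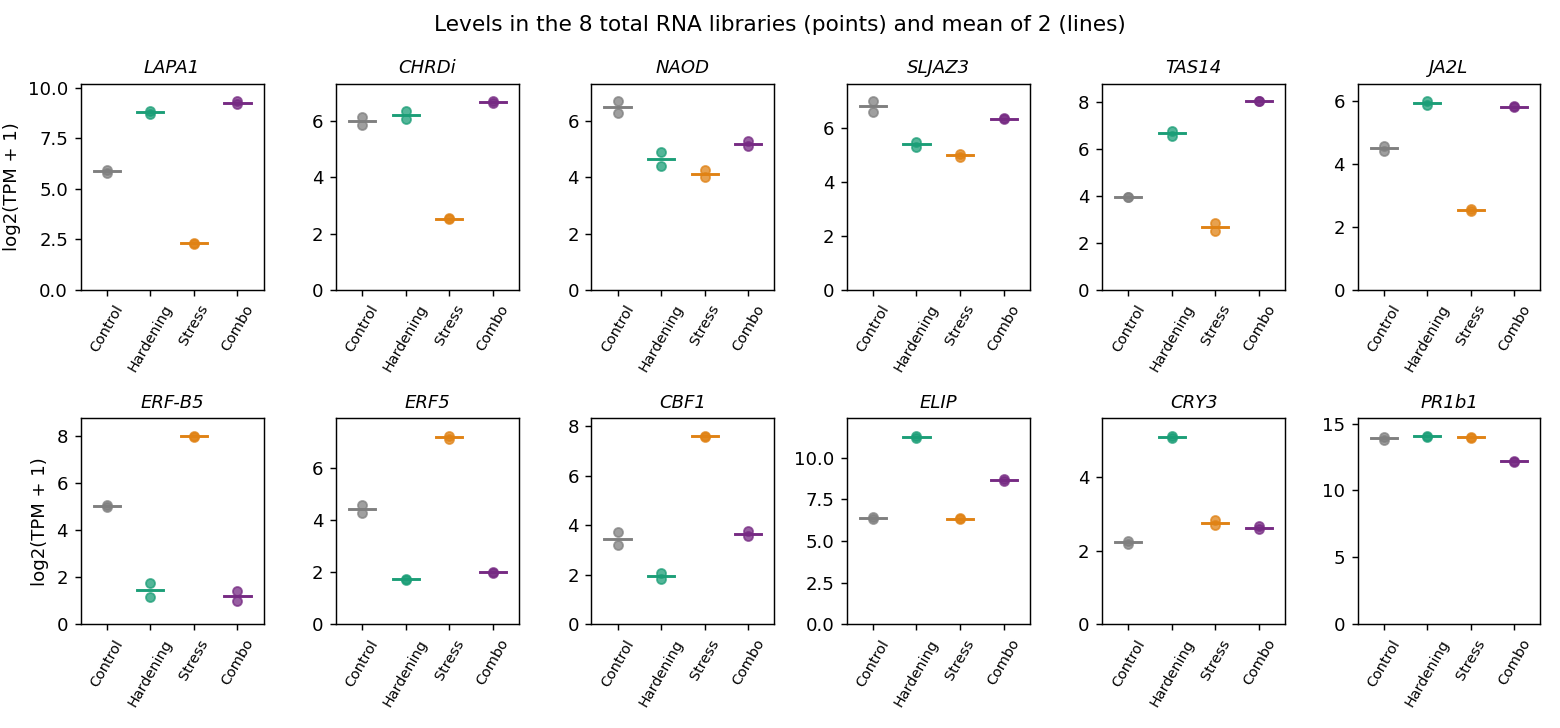
Levels of 12 named transcripts in the 8 total RNA libraries, as log2(TPM + 1) with an axis of its own for each transcript. Points are libraries and lines are means of 2. LAPA1, CHRDi, TAS14 and JA2L are lowest in Stress, ERF-B5, ERF5 and CBF1 are highest in Stress, ELIP and CRY3 are highest in Hardening, and PR1b1 is lowest in Combo.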

How the data were processed

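Total RNA of leaves was selected for poly(A), made into stranded libraries and sequenced in pairs. The authors filtered the reads with fastp, estimated transcript levels with kallisto 0.50.0 on the transcriptome of assembly SL3.1, and deposited TPM for 45845 RefSeq transcripts. FASTQ files came from bcl2fastq 2.20 by the submitters' processing notes. The TPM are estimates corrected for length, so no count model was used.

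Each of the 8 total RNA libraries was divided by a factor, the trimmed mean of log ratios without weights (at each end 30% of ratios and 5% of levels left out) over transcripts of at least 1 TPM. That minimum was chosen after seeing that estimates near 0 shifted the median. Those averaging 1 or more after scaling were taken as log2(scaled TPM + 1) into limma 3.58.1 in R 4.3.3, with 1 mean per condition and a trended empirical Bayes prior. Benjamini-Hochberg adjustment ran over all of them. A fold on this scale understates the change of low transcripts. The fit was tested on simulated data with independent noise and far fewer changed transcripts than were called here. That test therefore does not show how the scaling behaves when so many transcripts change. Tables and figures used Python 3.11.15, pandas 2.3.3 and matplotlib 3.10.9.

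Symbols came from the RefSeq annotation of SLM_r2.1, which paired 34881 identifiers with a gene, and 1635 of the transcripts tested have a symbol other than a locus number. Since its build differs, no coordinates are given, and promoter motifs were not searched. Gene lists were made from symbols and corrected by hand where a symbol meant another gene. The list of chlorophyll metabolism and chloroplast development had no symbol pattern, and its members were chosen by hand. The members, lists and comparisons were chosen with earlier results of these data known. Named transcripts have a symbol other than a locus number. They are the 12 Up and 12 Down with the largest change, up to 2 Up and 2 Down of each list, and the 5 highest and lowest interactions. Each of these has a mean of at least 10 TPM and no overlap between Combo and Stress. The most abundant member of each list needed the same mean but could overlap. Neither condition was set for 8 further genes (CBF1, ICE1A, LE25, AKR4B, ELIP, CRY3, Cab-1D and CAB12). Alternatives covered scaling, pseudocount, filter, replicate block, libraries in the fit, sums per gene, unadjusted p and leaving out each library. Monosome and polysome libraries were not used here.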

Additional observations from a re-analysis of the deposited data

Results flagged for a closer look

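Of the 140 transcripts chosen by the naming rule, 41 changed after hardening by a different amount at 0 °C than without it. Over all transcripts tested the shares were 3.0% higher and 4.17% lower, but the naming rule takes transcripts for their interaction and for large changes, so nothing is read from the count of 41. The value given for each is the log2 change in Combo_vs_Stress minus that in Hardening_vs_Control, by limma's test of the interaction over 2 libraries per condition (adjusted p under 0.05, size over 1). Stress and Combo leaves were also collected 2 h later in the day, so the cold exposure and the hour cannot be told apart.

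Higher values were seen for LAPA1 (4.17), CHRDi (4.06), NAOD (3.04), SLJAZ3 (2.86) and TAS14 (2.78). The NAC factors JA2L (1.96) and JA2 (1.39), the calcium genes CaM2 (1.79) and CDPK2 (1.74), and the abscisic acid phosphatase PP2C-2 (1.05) were in the same direction. LE25 (1.54), AKR4B (1.04), ERF84 (1.49), INO (1.68) and SP2G (1.56) rose in both comparisons, and more in Combo_vs_Stress. For AKR4B the Combo level (1706 and 1745 TPM) was not above that of Hardening (1869 and 1812 TPM). Its Stress level (3.83 and 4.35 TPM) was below that of Control (9.71 and 9.01 TPM). The Stress values of ERF84 (0.272 and 0.386 TPM) and INO (0.0240 and 0.109 TPM) are below the 1 that is added, so their fitted sizes depend on it. gad2 (1.59) fell in both and less at 0 °C. MIR482a (1.85) is listed at 0 in both Hardening libraries, so that its fitted value is no measure of size.

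Lower values were seen for ERF-B5 (-3.12), ERF5 (-2.39) and CBF1 (-2.38). ERF-B4 (-2.82) is listed at 0 in all Hardening and Combo libraries, so its fitted value is no measure of size either. Light-related genes were CRY3 (-2.9), ELIP (-2.43), VDE (-1.99), CO1 (-1.99) and ZEP (-1.25). Defence and stress genes were PR1b1 (-1.84), P69B (-1.57), PR-1a1 (-1.16), WRKY40 (-1.3), Hsp20.0 (-1.11) and ASR3 (-1.03). Growth and transport genes were EXP2 (-2.26), XTH7 (-1.56), IAA4 (-1.63), GH3-8 (-1.34), PIP2-7 (-1.7) and AMT1-2 (-1.83). The metabolic genes were F3'H (-2.19), GGP1 (-1.7) and GLO2 (-1.65).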

How the results depend on the processing

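The number of Up and Down transcripts kept within 1.5 times its value under most alternatives. With TPM as deposited, 4909 transcripts were Up in Hardening_vs_Control, the share of Up in Combo_vs_Stress was 56.08% and the median change 0.247. The median was 0.093 with factors from all values above 0, an alternative added after seeing the data. With a minimum mean of 5 TPM, where fewer transcripts are tested, 2974 were Down and the median was 0.085. Leaving out single libraries gave 3078 to 3277 Up and 4367 to 4606 Down in Combo_vs_Stress, 475 to 595 higher and 650 to 861 lower interactions, with the remaining library of a condition assumed to vary like the others. Sums per gene gave 2735 Up and 4194 Down. Of 2380 values of named transcripts under the alternatives, 9 lost their call, 3 gained one and 0 reversed, which says little where a transcript was chosen for a large change. NAOD, for example, reached 1.06 with TPM as deposited. Of 1224 list counts 39 moved by more than 1.5 times.

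With the replicate number as a block, 3262 transcripts were Up and 4666 Down, 3200 and 4599 of them the same as without it, and the interaction counts were 786 and 1093. Same-numbered libraries deviated together weakly (correlations of 0.222 to 0.284 between conditions), but only 2 numbers exist and nothing in the labels ties them to a shared plant or batch. TPM keep no depth, so low transcripts cannot be weighted by their counts.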

Other observations

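Protein-coding transcripts made up 18867 of those tested, of which 14.8% were Up and 21.5% Down in Combo_vs_Stress. Of 500 long non-coding RNAs 12.8% were Up and 16.4% Down, and the difference was not tested. Small nuclear RNAs, which carry no poly(A) tail in the usual course, were 22.4% Up and 2.4% Down of 85 in these poly(A)-selected libraries.

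Of 2719 genes with more than 1 transcript tested, 1205 had a called transcript and 20 had an Up and a Down transcript at once. LOC101252813, singled out after its values were seen, is the clearest by level: one transcript went from 284 and 299 to 1228 and 1327 TPM and another from 54.7 and 63.1 to 11.7 and 10.6 TPM. Such values rest on how kallisto divides reads between transcripts of a gene, which was not tested here.

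XM_010316700.1, a transcript with no symbol, was among the 10 most abundant in both conditions and differed between libraries of the same condition, at 1966 and 13501 TPM in Stress and 5626 and 13578 TPM in Combo. XR_003244938.1 (1796 and 12020, 5474 and 12994 TPM) and XR_003244462.1 (1453 and 10786, 4010 and 10523 TPM) had the same pattern. In all 3 replicate 2 was the higher in both conditions, and none of them was called.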
